A study of Zea mays with 4 samples.

Results

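Beta-tubulin is the subunit that pairs with alpha-tubulin to form the dimer from which microtubules are built. In plant root tips microtubules form the mitotic spindle, the preprophase band and the phragmoplast of dividing cells, and the cortical arrays that guide the cellulose synthases of expanding cells. Maize carries a family of beta-tubulin genes, named tub1 to tub8, whose products are closely related proteins.

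The 8 family members were found among the 48174 genes of the deposited tables by looking up every GeneID whose NCBI symbol or synonym is one of the names tub1 to tub8. They are tub1 (GeneID 100273658), tub2 (GeneID 542380), tub3 (GeneID 542416), tub4 (GeneID 542417), tub5 (GeneID 542418), tub6 (GeneID 542239), tub7 (GeneID 542705) and tub8 (GeneID 100501242). GeneID 542418 carries both tub5 and tub8 among its synonyms and is called tub5 here, while tub8 stands for GeneID 100501242. Genes that encode a beta-tubulin but carry none of these names were not looked for, because no protein sequence was at hand, so sums over the family cover the named genes.

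RNA came from the last 1 mm of primary and seminal roots of B73 seedlings, the inbred line of the maize reference genome, taken 3 days after germination from seedlings kept at 28 C in constant dim light of about 500 lux. The 4 biological replicates form a single untreated group, and both root types are named for each of them. The design asks for the steady-state RNA content of this zone, which holds the meristem, and has no second condition. All comparisons are therefore between genes within the same library, and the 4 libraries give the error. Each library is a whole tissue sample, so more cells that carry a transcript and more transcript per cell cannot be told apart.

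Library totals ran from 9168397 counts in replicate 2 to 14728175 in replicate 1. Both root cap marker genes found, RCP1 and RCP2, were expressed, with a summed level of 316 to 423 CPM (counts per 1000000 counts in the library), and the root hair gene rth3 stood at 61.9 to 69.4 CPM. Of 14 leaf photosynthesis genes 6 had no count in any library, both rbcS genes among them, and the summed level of 44.8 to 90.1 CPM came mostly from ppdk1, a gene that also acts outside leaves. Both pollen genes, EXPB1 and mgs1, and 43 of 46 genes matched as seed storage genes had no count in any library. A gene without a count in any of the 4 libraries could still have reached 0.0584 CPM, the level of 3 counts over their summed total. This bound does not cover reads that match several gene copies, whose treatment the sources used here do not give.

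All 8 beta-tubulin genes were detected in every library, and their mean levels spanned more than 2 orders of magnitude. tub5 was the highest and tub3 the lowest, and the tub5 level exceeded that of tub3 367-fold in CPM (SD 76.5, n = 4), with single libraries between 293-fold and 441-fold. The genes fell into an upper set of tub5, tub6, tub1, tub7 and tub4 and a lower set of tub8, tub2 and tub3. Levels are in CPM and are not divided by transcript length, which the reference used here does not give. The only length at hand was the span of each gene in the RefSeq annotation of Zm-B73-REFERENCE-NAM-5.0, introns included, which ran from 1987 bp for tub1 to 3750 bp for tub3. Per kb of this span the order of the 8 genes was the same, and the ratio of tub5 to tub3 was 411-fold (SD 85.9).

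**Figure D1:**
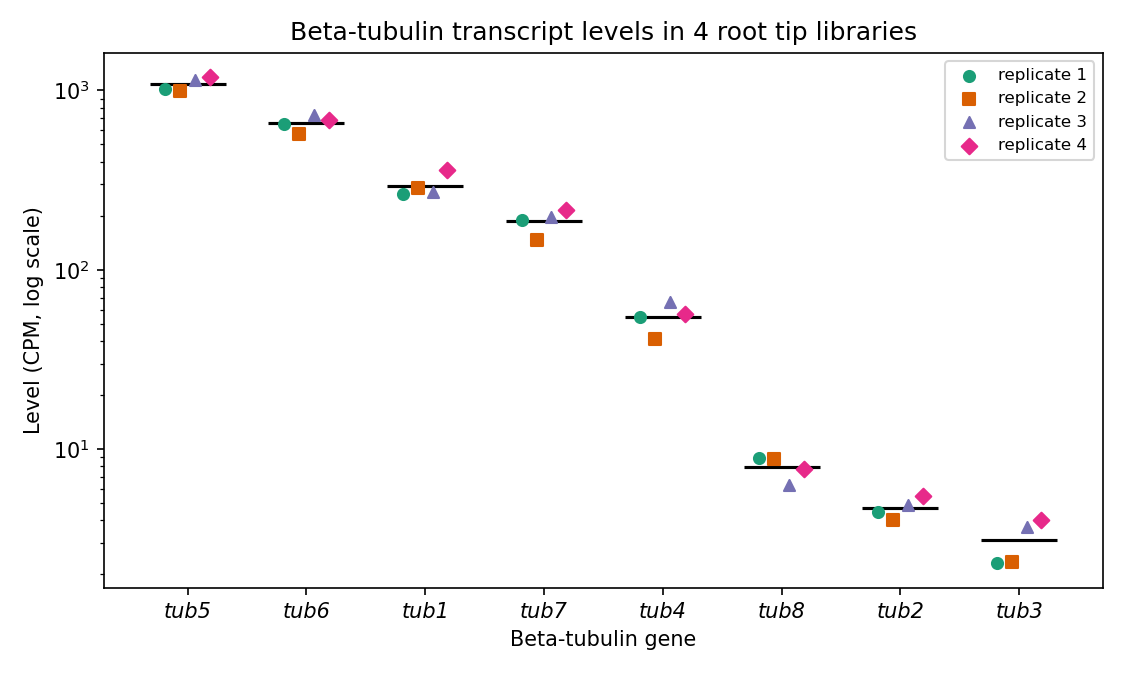
Level of each beta-tubulin gene in CPM (log scale) in the 4 root tip libraries, 1 point per library, with the mean as a horizontal line. The genes are ordered by mean level, from tub5 at 1084 CPM to tub3 at 3.10 CPM, and neighbouring genes overlap in range only for tub2 and tub3.

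tub5 stood at 1019, 993, 1141 and 1182 CPM in replicates 1 to 4, with a mean of 1084 ± 92.1 CPM (SD, n = 4). Replicates 3 and 4 were the higher libraries, and the highest exceeded the lowest 1.19-fold. Among the 19603 expressed protein-coding genes tub5 ranked between place 71 and place 110 by CPM, depending on the library and without length correction. tub6 stood at 649, 569, 726 and 686 CPM, with a mean of 657 ± 66.6 CPM (n = 4). All 4 of its values lay below the lowest value of tub5 and above the highest value of tub1.

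tub1 reached 265, 284, 272 and 358 CPM in replicates 1 to 4, a mean of 295 ± 42.8 CPM (n = 4). Replicate 4 stood apart from the other three libraries, which lay close together. tub7 reached 190, 146, 197 and 215 CPM, a mean of 187 ± 29.4 CPM (n = 4), with its low value in replicate 2. tub4 reached 54.3, 41.2, 66.1 and 56.6 CPM, a mean of 54.6 ± 10.2 CPM (n = 4), again with its lowest value in replicate 2. The ranges of tub1, tub7 and tub4 did not overlap.

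The lower set began with tub8 at 8.96, 8.83, 6.30 and 7.78 CPM in replicates 1 to 4, a mean of 7.97 ± 1.23 CPM (n = 4). Unlike the other members, tub8 had its lowest value in replicate 3. tub2 stood at 4.48, 4.04, 4.85 and 5.51 CPM, a mean of 4.72 ± 0.622 CPM (n = 4). tub3 stood at 2.31, 2.35, 3.69 and 4.04 CPM, a mean of 3.10 ± 0.899 CPM (n = 4), and its replicates 3 and 4 were above replicates 1 and 2. These 3 genes rest on few counts, with 21.5 to 55 counts per library for tub3.

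The 2 highest genes supplied most of the family's counts. tub5 made up 46.5, 48.5, 47.2 and 47.0% of the summed beta-tubulin CPM in replicates 1 to 4, a mean of 47.3 ± 0.857% (SD, n = 4), and tub6 added 28.7 ± 1.34%. tub1 supplied 12.9 ± 1.42%, tub7 8.13 ± 0.706% and tub4 2.37 ± 0.309%. The upper 5 genes together held 99.3 ± 0.0558% of the family's counts, and tub8, tub2 and tub3 together held 0.691 ± 0.0558%. Divided by gene span, the share of tub5 was 43.9 ± 0.739% and that of tub1 20.1 ± 2.02%. The summed level of the 8 genes was 2193, 2049, 2417 and 2515 CPM in replicates 1 to 4.

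**Figure D2:**
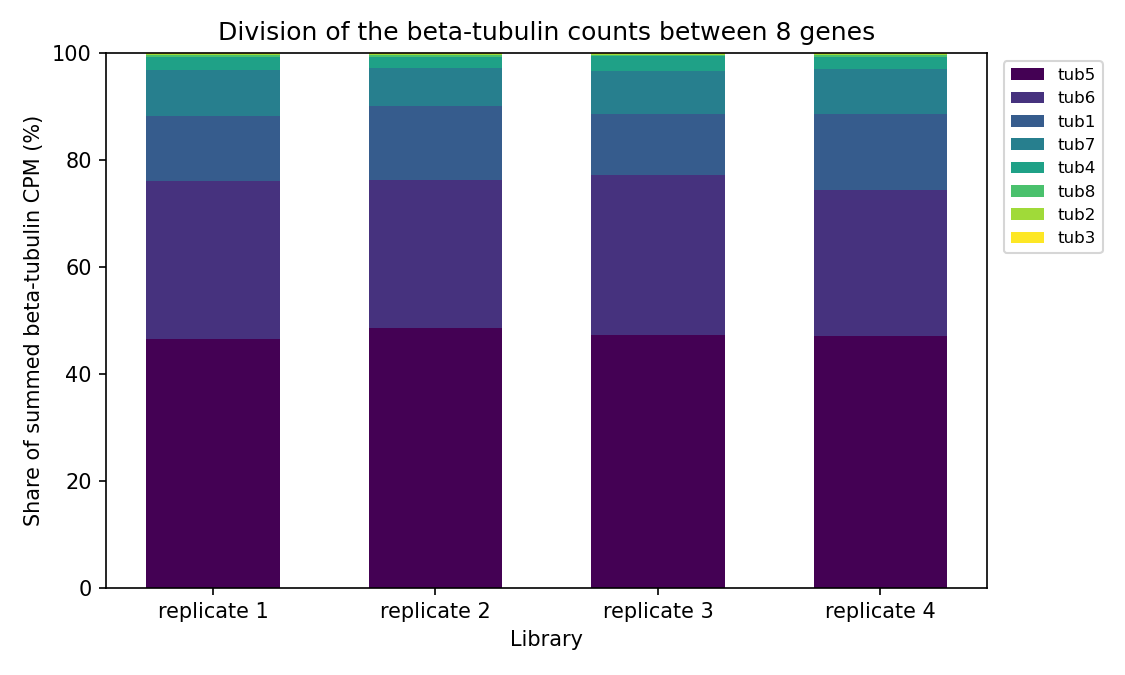
Share of each of the 8 genes in the summed beta-tubulin CPM (percent, stacked from 0 to 100) for each library. tub5 and tub6 together fill 74.3 to 77.2% of every bar, and tub8, tub2 and tub3 are thin bands at the top.

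The order of the 8 genes was identical in all 4 libraries. Of the 28 pairs of members, 28 had the same gene on top in each library and 27 had ranges over the libraries that did not overlap. The exception was the pair of tub2 and tub3, where the highest value of tub3 and the lowest value of tub2 were both 4.04 CPM. The widest step between neighbours separated tub4 from tub8, with a log2 ratio of CPM of 2.60, 2.22, 3.39 and 2.86 in replicates 1 to 4, a mean of 2.77 ± 0.49 (SD, n = 4) or 6.82-fold. The next widest step, from tub7 to tub4, measured 1.78 ± 0.15 on the same scale, or 3.44-fold.

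The remaining steps were smaller. The log2 ratio of CPM was 0.72 ± 0.08 from tub5 to tub6, 1.16 ± 0.23 from tub6 to tub1, 0.66 ± 0.24 from tub1 to tub7, 0.75 ± 0.37 from tub8 to tub2 and 0.65 ± 0.27 from tub2 to tub3 (SD, n = 4). Each of the 7 steps exceeded its SD over libraries and was positive in 4 of 4 libraries. The genes were ordered by their mean CPM in these same libraries, so the direction of a step and the test on it give no independent support for the order. The exact two-sided sign-flip permutation test gave p = 0.13 for each (0.13 after Benjamini-Hochberg adjustment over 8 comparisons), which is the smallest p that 4 libraries allow, so no step could pass 0.05. Per kb of gene span, tub6 exceeded tub1 by 1.26-fold in place of 2.24-fold, and tub1 exceeded tub7 by 2.48-fold in place of 1.58-fold, because tub1 has the shortest span.

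**Figure D3:**
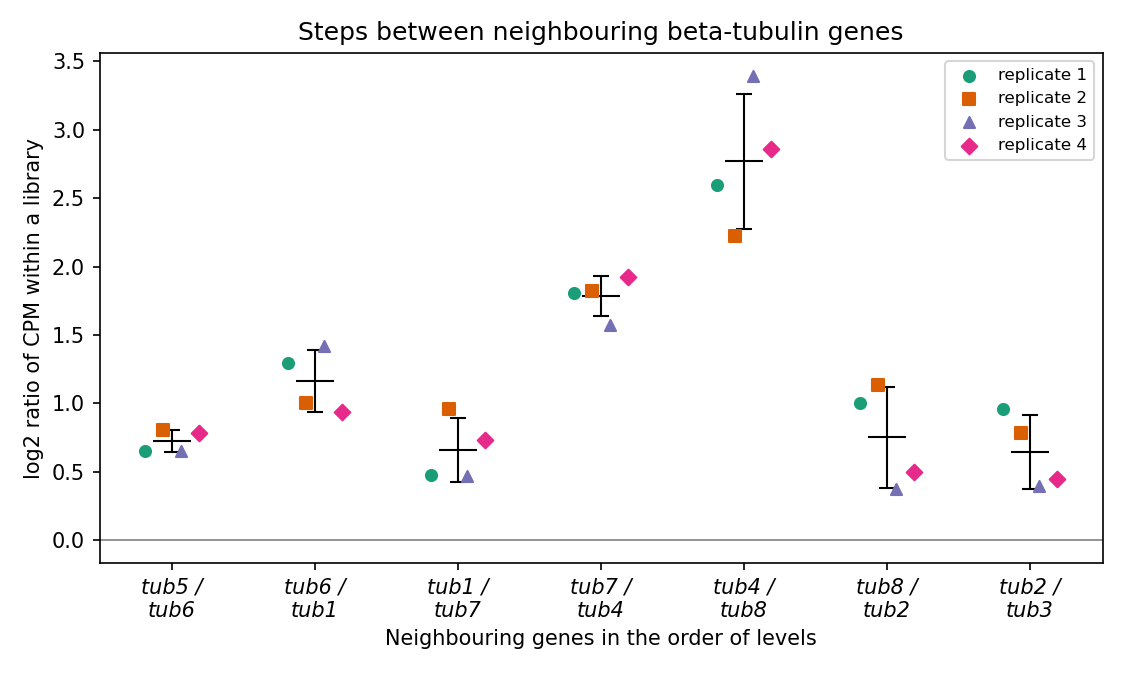
log2 ratio of CPM between each beta-tubulin gene and the next lower one within each library, with 1 point per library and bars for mean ± SD (n = 4). Every point lies above 0, and the step from tub4 to tub8 is the widest at 2.77.

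Against the median protein-coding gene among those expressed in a library, which stood at 13.9 to 15.5 CPM, 5 of the 8 members lay above, 2 below and 1 neither. All 8 passed the filter on low counts. The test was edgeR's quasi-likelihood test against a 2-fold difference in either direction, with p-values adjusted over all 21039 genes tested and a threshold of 0.05. By the same rule 25.6% of all tested genes were called above and 26.9% below. The median log2 ratio was 2.79 over the 8 members and -0.07 over all genes tested. These ratios are of reads and not of molecules, since transcript length was not taken into account.

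tub5 exceeded the median gene by a log2 ratio of 6.21 (SE 0.09), or 74.0-fold, with an adjusted p of 2.51e-20 by edgeR. tub6 followed at 5.49 (44.9-fold), tub1 at 4.33 (20.1-fold), tub7 at 3.67 (12.7-fold) and tub4 at 1.90 (3.73-fold, adjusted p = 1.56e-07 by edgeR). Without the filter on low counts the median gene is lower, and the ratios of all 8 genes were 0.85 log2 units higher, which puts tub5 at 133-fold and tub1 at 36.2-fold. Per kb of gene span tub1 stood at 44.3-fold and tub5 at 97.1-fold. tub3 lay below at -2.23 (SE 0.15, adjusted p = 4.22e-06 by edgeR), 4.69-fold lower than the median gene. tub2 lay below at -1.63 (SE 0.12, adjusted p = 0.000254 by edgeR). Its call was lost per kb of gene span (log2 ratio -1.14, adjusted p = 0.462 by edgeR) and without the filter on low counts (-0.78, adjusted p = 1). tub8, at -0.88 (SE 0.11), lay inside the 2-fold range and was not called.

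**Figure D4:**
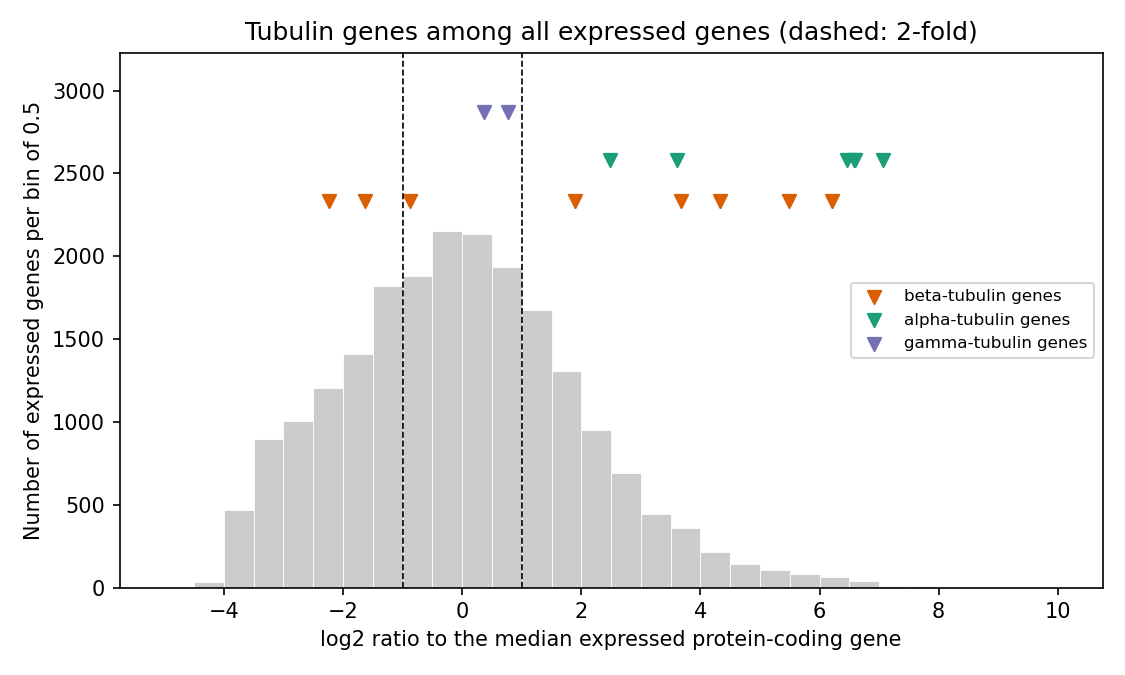
Number of expressed genes in bins of 0.5 of the log2 ratio to the median expressed protein-coding gene (grey bars), with triangles for the tubulin genes and dashed lines at a 2-fold difference. Beta-tubulin genes reach from -2.23 to 6.21, alpha-tubulin genes from 2.48 to 7.06, and both gamma-tubulin genes lie inside the dashed lines.

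The spread between libraries differed from gene to gene. The coefficient of variation of the CPM was lowest for tub5 at 8.50% and highest for tub3 at 29.1% (n = 4 each). Counting error alone would give 0.859% for tub5 and 16.0% for tub3. For tub2 the observed 13.2% was close to the 13.0% that counting error gives, while tub7 at 15.7% and tub4 at 18.8% exceeded their 2.05% and 3.79%. The biological coefficient of variation that edgeR estimated ran from 11.9% to 16.3% over the 8 genes, next to a median of 12.4% over all genes tested. edgeR draws these estimates towards a trend over all genes, so they are not each gene's own spread alone.

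Replicate 2 was the lowest library for 5 of the 8 genes and replicate 4 the highest for 5. tub4 and tub7 each had their widest deviation in replicate 2, at -0.38 and -0.34 log2 units from their own mean log2 CPM. tub3 was low in both replicates 1 and 2, at -0.38 and -0.35, and high in replicates 3 and 4, at 0.30 and 0.43, whereas tub8 was low in replicate 3, at -0.33. The median expressed protein-coding gene was also lowest in replicate 2, at 13.9 CPM, and highest in replicate 4, at 15.5 CPM, and replicate 2 had the smallest library. With library sizes adjusted for composition by TMM, the SD over libraries was lower for each gene but tub8. It was 66.7 in place of 92.1 CPM for tub5 and 1.35 in place of 1.23 CPM for tub8. The part of depth and composition in these deviations was not tested.

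**Figure D5:**
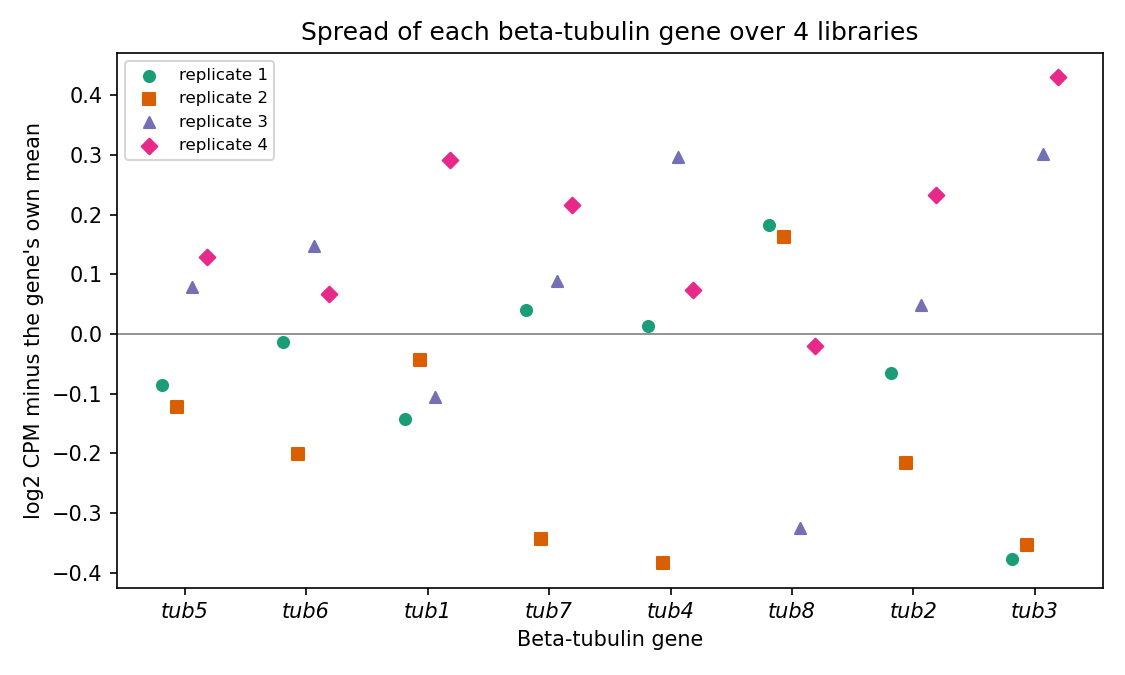
log2 CPM of each beta-tubulin gene minus its own mean over the 4 libraries, 1 point per library. Replicate 2 lies below 0 for 7 of the 8 genes, with tub8 as the exception at 0.16.

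The summed level of the alpha-tubulin genes exceeded that of the beta-tubulin genes in each library. The 6 alpha-tubulin genes tua1 to tua6, whose products are the partner subunit in the dimer, summed to 6029, 5852, 6895 and 6446 CPM in replicates 1 to 4, so alpha exceeded beta 2.76-fold in CPM (SD 0.138, n = 4). Alpha was higher in 4 of 4 libraries, and the log2 ratio of beta to alpha was -1.46 ± 0.07 (exact two-sided sign-flip permutation p = 0.13, adjusted 0.13, the smallest p possible). Per kb of gene span the excess was 2.89-fold (SD 0.165). All 6 alpha-tubulin genes were called above the median gene, as were 25.6% of all genes tested. They ran from tua4 at 1951 ± 152 CPM down to tua5 at 81.7 ± 18.7 CPM. The sums hold named genes only, and a copy without a name would add to either side.

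Gamma-tubulin, which nucleates microtubules, was far lower. tubg1 stood at 24.9 ± 2.01 CPM and tubg2 at 18.9 ± 1.20 CPM (n = 4), both inside the 2-fold range around the median gene. That position depended on the processing. Per kb of gene span tubg2 was called below (log2 ratio -2.15, adjusted p = 8.61e-09 by edgeR), and without the filter on low counts tubg1 and tubg2 were both called above (log2 ratios 1.62 and 1.22, adjusted p = 2.55e-09 and 0.0206 by edgeR). Of all genes tested, 26.1% were called below per kb of gene span. Without the filter 28.4% were called above, a share over genes that include those failing the filter. The summed beta-tubulin level exceeded the summed gamma-tubulin level 52.3-fold in CPM (SD 2.35) and 152-fold per kb of gene span (SD 6.94). In CPM the beta-tubulin genes tub8, tub2 and tub3 lay below both gamma-tubulin genes. Per kb of gene span, however, tub2 stood at 1.52 ± 0.200 CPM per kb, above the 0.754 ± 0.0477 CPM per kb of tubg2, which has a span of 25085 bp. The mean of tub3, at 0.826 ± 0.240 CPM per kb, differed from that of tubg2 by less than the SD of tub3, and their order changed between libraries.

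Among 16 genes matched by name as microtubule motors and associated proteins, 14 passed the filter on low counts, of which 3 lay above the median gene, 0 below and 11 neither by edgeR's test. The 21.4% above compares with 25.6% of all genes tested, and the 0 below with 26.9%. The median log2 ratio of the 14 was 0.72. Without the filter on low counts 10 of the 14 were called above, against 28.4% of all genes. That comparison is not a like one, since the 14 had passed the filter and all genes include those that fail it. kin5, outside the 14, was called below at this setting (log2 ratio -4.24). Per kb of gene span 4 of the 14 were above and 2 below, against 28.3% and 26.1% of all genes. The highest were spr1 at 117 ± 19.6 CPM and kin13 at 56.9 ± 8.01 CPM, and kin6 was the third gene above. The lowest that passed were ktn2 (GeneID 100283437) at 10.8 ± 0.932 CPM and kin1 (GeneID 606399) at 11.6 ± 2.03 CPM (n = 4). Each of these 14 genes lay in CPM above tub8, tub2 and tub3 and below tub7. Per kb of gene span the order against tub8 and tub2 did not hold for every gene. There ktn2 (GeneID 100283437), at 0.909 ± 0.0783 CPM per kb, lay below tub8 at 3.23 ± 0.500 and tub2 at 1.52 ± 0.200. On the same scale kin1 (GeneID 606399), at 1.82 ± 0.318 CPM per kb, lay below tub8. A second gene with the name kin1 had no count in any library, and kin5 also bears the synonym TD1, the name of a receptor kinase of the maize meristem, so the list is one of names rather than of verified kinesins.

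Of the expressed protein-coding genes, those nearest in level to tub5 were LOC100273082, LOC100283431 and LOC100216796. Their root mean square differences from tub5 were 0.09, 0.11 and 0.13 log2 CPM over the 4 libraries. LOC100273082, which carries the synonym arpp40, stood at 1087 ± 19.4 CPM (n = 4). The measure is one of similar level, and no correlation was computed over 4 libraries.

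Reads can be hard to assign between near-identical paralogues, and some deposited values are not whole numbers (tolerance 1e-06 of a count). Of the 32 beta-tubulin values 1 was fractional, the 21.5 counts of tub3 in replicate 2. Of the 24 alpha-tubulin values 8 were fractional, in 4 of 6 genes, and of the 8 gamma-tubulin values 0 were. A fraction in any library was found for 9.97% of the 30726 genes with a count, and for 1 of 8 beta-tubulin genes. No beta-tubulin gene overlapped another annotated gene or lay next to another tubulin gene in the reference, whereas tua1 and tua2 lie side by side. The sources used here give neither the origin of the fractions nor the treatment of reads that match several copies. A whole count therefore does not show that its reads were unique, and the level of each single beta-tubulin gene is uncertain to that extent.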

How the data were processed

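Ribosome-depleted total RNA was made into strand-specific libraries with molecular tags, per the labels' protocols. The deposited values are estimated counts per gene, not normalized. HTSeq, UMI-tools, deepTools, SAMtools, STAR 2.7.10b and Trimmomatic 0.36 and 0.39 are named, per the submitters' processing notes. The sources used here do not give the genome build, annotation, strand setting, collapsing of tags or treatment of reads with several matches, so if tags were not collapsed, counting error is understated. A further table has 5 columns that match no sample, and they were not used.

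Gene names came from the RefSeq table of Zm-B73-REFERENCE-NAM-5.0 (48127 of 48174 GeneIDs found). No coordinates are printed, because the build of the counts is not named. CPM were computed from the deposited values. For the test, counts were rounded and filtered with filterByExpr (minimum count 10, minimum total 15), and edgeR 4.0.16 (R 4.3.3) fitted a quasi-likelihood model that has only an intercept, with each library's median expressed protein-coding gene as offset. The F statistic was formed at the nearer 2-fold bound. The design called for coding length as a further offset, but no protein or transcript lengths were at hand, and the fallback without a length term was used. The procedure was tested on counts simulated from the kind of model it assumes, which cannot show that this model holds for the 4 libraries. DESeq2 1.42.0 was an alternative. Of 6 pairs of libraries 0 were identical, and all differed by more than sampling noise (chi-square per degree of freedom 6.43 to 18.1). The named genes were the 8 members, the alpha- and gamma-tubulin genes, the 2 highest and 2 lowest expressed genes of a longer list and the 3 genes nearest to the highest member in level. kin6, kin5 and the second kin1 were named after their values were seen. A list of tubulin folding genes matched only 3 names of ferredoxin genes and was not used. Members and lists were chosen with earlier results of these data known.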

Additional observations from a re-analysis of the deposited data

How the results depend on the processing

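The count of beta-tubulin genes above the median gene was 5 under every alternative run, namely DESeq2, TMM library sizes, no filter on low counts, a test against equality, fractional values cut to the whole number below, levels per kb of gene span (chosen after seeing the data) and leaving out each replicate. The count below was 2, but 1 without the filter and 1 per kb of gene span, where tub2 lost its call. Of all genes tested 41.3% were called below without the filter and 26.1% per kb of gene span. Against equality with the median gene tub8 was called below as well (log2 ratio -0.88, adjusted p = 3.69e-06 by edgeR), at a setting that called 44.3% of all genes above and 47.1% below. Leaving out each replicate gave counts of 5 to 5 above and 2 to 2 below. The share of tub5 was 43.9% per kb of gene span in place of 47.3%, by construction of the span correction, and 46.9 to 47.6% with a replicate left out. The steps between neighbours and the ratio of beta to alpha kept their direction under each alternative run for them. Leaving out a replicate could not reverse them, since each had the same sign in 4 of 4 libraries. Cutting fractions removed less than a count from any value, so only the levels per kb of gene span could have changed a direction. No paired analysis was possible because the samples form 1 group, so there is no second group whose samples could be paired with them, and the within-library ratios pair genes and not samples. Alternatives with coding length or with homologues found by protein sequence were not run. Depth limits tub8, tub2 and tub3 most.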

Other observations

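The alpha-tubulin genes divided their counts differently from the beta-tubulin genes. tua4 supplied 30.9 ± 0.141% of the summed alpha-tubulin CPM, tua3 22.3 ± 1.80%, tua2 22.3 ± 0.791% and tua1 20.4 ± 1.82% (SD, n = 4), where tub5 alone supplied 47.3 ± 0.857% of the beta-tubulin sum. The lowest alpha-tubulin gene, tua5, still supplied 1.29 ± 0.229%, more than tub8, tub2 and tub3 together did on the beta side. The shares of tua1, tua2, tua3 and tua5 are uncertain as single values, because each of these genes had fractional counts, whose origin is not given. tua1 and tua2 are also neighbours that carry the same older gene model name.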
